A study of Mus musculus with 16 samples.

Results

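The carbonic anhydrases are the family of enzymes that interconvert carbon dioxide and bicarbonate, and 10 mouse genes of the family were followed here by name, Car1, Car2, Car3, Car4, Car5b, Car7, Car8, Car9, Car12 and Car13, out of 54123 genes in the tables. Estimated read counts were summed over the transcripts of each gene in 16 RNA-seq libraries of colon organoids. Organoids are three-dimensional epithelial cultures grown from crypt stem cells. The libraries form 8 groups of 2, from proximal or distal colon, with Scramble-sgRNA (control) or Cdx2-sgRNA, in WENR-plus or WENR-minus medium. Cdx2 encodes a homeobox transcription factor of the intestinal epithelium.

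The organoids came from 2 female mice, 8 weeks old, all heterozygous for a Cre-inducible BRAF V600E allele and a tdTomato reporter. Crypts were taken from 1.0 cm at the start of the proximal colon and 1.0 cm at the end of the descending colon, no Cre was given in these 8 groups, and Cas9 guides were delivered by lentivirus. Cdx2-sgRNA cultures grew from single cells with a frameshift in both alleles and are therefore clones, whereas no such step is given for the Scramble-sgRNA cultures. Below, a line is a combination of region and guide. WENR-plus medium contained Wnt3a, R-spondin 1, Noggin and EGF, and WENR-minus medium lacked all of them. At 4 months of culture, every group had 2 days in WENR-plus medium and then 3 days in either medium. With 2 libraries per group, p-values measure the spread between these libraries only.

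Carbonic anhydrases set pH and supply bicarbonate and protons to ion exchangers, which in the colon serve sodium chloride absorption and bicarbonate secretion. Car1, Car2, Car3, Car7 and Car13 are cytosolic, Car5b is mitochondrial, Car4 is anchored to the outer surface of the plasma membrane, and Car9 and Car12 span the membrane with the catalytic domain outside. Car1 and Car4 are known from colonocytes of the surface epithelium. Car8 has lost catalytic activity.

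The catalytic zinc is held by 3 histidines. The coding stretch that carries their codons is shown for the 4 members on which the results turn. The sequences come from GENCODE vM21 transcripts, 5′ to 3′, from 2 codons before the first of the 3 zinc positions to 2 codons after the last, with the codons of these positions in capitals.
Car1: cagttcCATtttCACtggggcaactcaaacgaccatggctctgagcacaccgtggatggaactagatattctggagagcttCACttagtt
Car2: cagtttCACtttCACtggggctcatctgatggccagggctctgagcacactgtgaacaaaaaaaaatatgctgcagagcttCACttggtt
Car4: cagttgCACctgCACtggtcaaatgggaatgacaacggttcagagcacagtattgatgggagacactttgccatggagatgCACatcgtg
Car12: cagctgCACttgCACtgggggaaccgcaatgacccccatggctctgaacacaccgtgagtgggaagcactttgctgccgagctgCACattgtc
All 3 positions are histidine codons (CAT or CAC) in these 4 members. The stretch is 90 bases long in Car1, Car2 and Car4 and 93 in Car12. Against Car2, it is identical at 76.7% of bases in Car1, 82.2% in Car3 and 56.7% in Car4. None of the 45 pairs of members shared a 31-base word in their transcripts, so reads could be assigned between these relatives.

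The genes of 4 cytosolic members lie together on chromosome 3 of GRCm38 (mm10), within 259 kb. Car13 spans chr3:14641727-14663002, Car1 chr3:14766216-14808368, Car3 chr3:14863512-14872523 and Car2 chr3:14886273-14900770. Car1 alone of these lies on the minus strand. Car4 spans chr11:84957786-84966044, Car12 chr9:66713686-66766845, Car9 chr4:43506966-43513729 and Car7 chr8:104534689-104550343, all on the plus strand. Car8 spans chr4:8143362-8239041 and Car5b chrX:163976822-164027997, both on the minus strand.

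Libraries held 12465194 to 18922143 estimated counts. Of 15289 genes that passed the filter on low counts, 9 were members. Car7 had 0 to 7 reads per library and was not tested. The summed CPM (counts scaled to library size after TMM normalization) of 7 epithelial markers was 3972 or more in every library, while the defining markers of blood cells (Ptprc), fibroblasts (Col1a1) and erythroid cells (Hbb-bs) had at most 12, 7 and 0 reads. In the same lists, Mb, a muscle gene, reached 501 reads, Pecam1, an endothelial gene, 26, and the rest at most 7. Cdx2 transcripts fell by 2.09 ± 0.21 on the log2 scale upon Cdx2-sgRNA in proximal organoids in WENR-plus medium and by 1.29 ± 0.20 in WENR-minus medium. In distal organoids in WENR-plus medium, Cdx2 had 1086 and 949 reads in the libraries labelled Cdx2-sgRNA and 1534 and 1263 with Scramble-sgRNA, without overlap. In WENR-minus medium, 1493 and 1029 reads overlapped with 1461 and 1535. A frameshifted transcript is still counted, so read counts do not check the label. Cdx1, the paralog of Cdx2, had 4 to 16 reads in the 4 proximal Cdx2-sgRNA libraries and 835 to 2187 in the other 12.

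Compared per length, the family was led by different members in different groups. TPM, the deposited levels scaled to transcript length and library size, were summed over the 10 members. This sum was 1408 ± 468 (SD, n = 2) in proximal Scramble-sgRNA organoids in WENR-plus medium and 10213 ± 2001 in WENR-minus medium. In distal Scramble-sgRNA organoids it was 1731 ± 299 and 6802 ± 898, and in distal Cdx2-sgRNA organoids 2880 ± 129 and 11365 ± 1419. Proximal Cdx2-sgRNA organoids had 744 ± 166 in WENR-plus and 449 ± 145 in WENR-minus medium. The WENR-minus libraries were higher than the WENR-plus libraries in 3 of the 4 lines, without overlap, and lower without overlap in proximal Cdx2-sgRNA organoids.

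**Figure D1:**
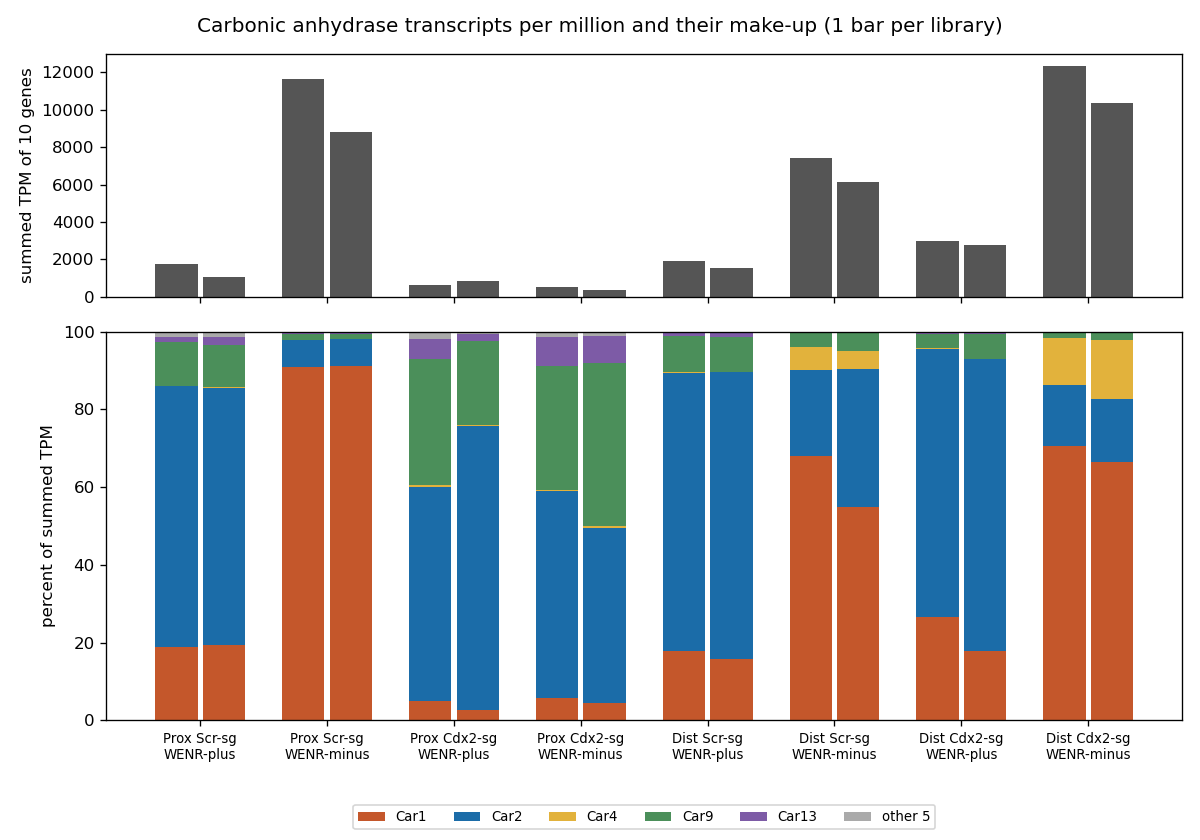
Upper panel, TPM summed over the 10 carbonic anhydrase genes in each of the 16 libraries; lower panel, the percent of that sum held by Car1, Car2, Car4, Car9, Car13 and the other 5 members, 1 bar per library. Car1 held over 54.8% in each of the 6 WENR-minus libraries outside the proximal Cdx2-sgRNA group, and at most 5.65% in the 4 proximal Cdx2-sgRNA libraries.

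Car2 held the largest share of the summed TPM in all 4 WENR-plus groups, with 66.7 ± 0.6% in proximal and 72.8 ± 1.6% in distal Scramble-sgRNA organoids. In WENR-minus medium, Car1 held 91.1 ± 0.2% in proximal Scramble-sgRNA, 61.4 ± 9.3% in distal Scramble-sgRNA and 68.5 ± 2.8% in distal Cdx2-sgRNA organoids. Car4 held 5.32 ± 0.94% and 13.7 ± 2.0% of the sum in the distal WENR-minus groups and was at most 0.390% in any other library. In proximal Cdx2-sgRNA organoids in WENR-minus medium, Car2 held 49.2 ± 5.8%, Car9 37.0 ± 7.2% and Car1 5.04 ± 0.85%. The ratio of Car1 to Car2 TPM within a library ranged from 0.0360 in a proximal Cdx2-sgRNA library to 13.5 in a proximal Scramble-sgRNA library. These are shares and ratios of levels, and no test was made on them.

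Across the members, differences between groups were tested with edgeR's quasi-likelihood test on the counts of all 16 libraries, with Benjamini-Hochberg adjustment over the 15289 genes in each comparison. A member was called where the adjusted p was under 0.05 and the absolute log2 difference over 1.  Levels of a single gene are given below as CPM.

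**Figure D2:**
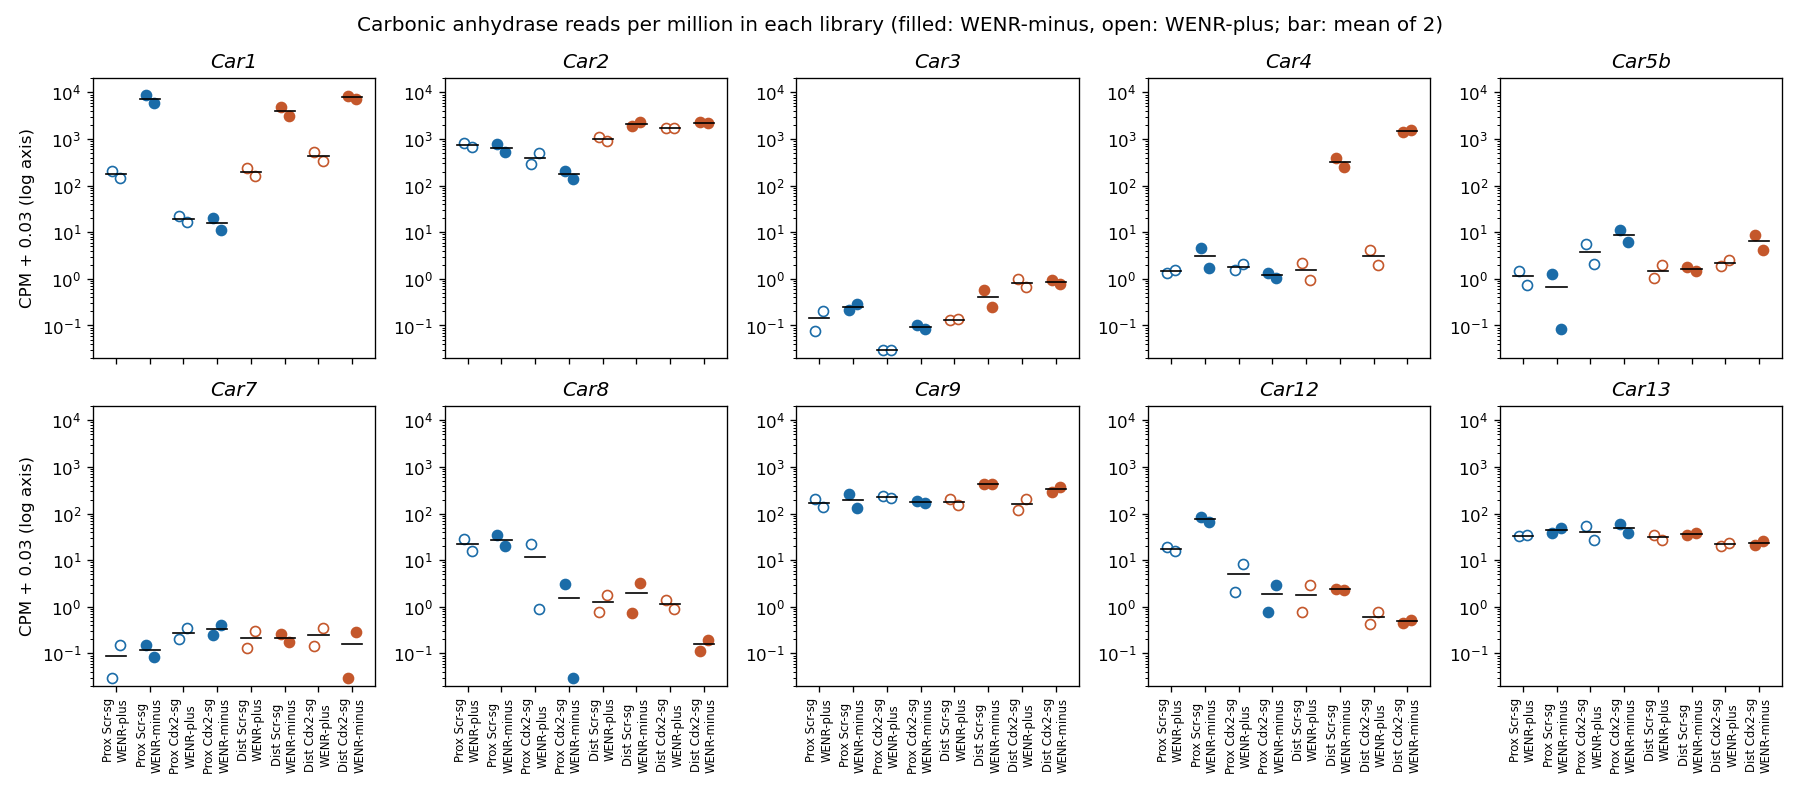
CPM plus 0.03, on a log axis, of each of the 10 members in each of the 16 libraries; blue is proximal and orange distal, filled points are WENR-minus and open points WENR-plus, and the black line is the mean of 2 libraries. Car4, Car8 and Car1 span the widest range, Car9 and Car13 the narrowest.

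The first question was how the members respond to withdrawal of the 4 growth factors. In proximal Scramble-sgRNA organoids, 2 of the 9 members tested were called higher (Car1 and Car12) and none lower, where 17.0% of all genes passed (8.73% higher and 8.24% lower). In distal Scramble-sgRNA organoids, 4 were higher (Car1, Car2, Car4 and Car9), with 26.4% of all genes called (12.2% higher and 14.2% lower). In distal Cdx2-sgRNA organoids, 3 were higher (Car1, Car4 and Car9), with 33.1% of all genes called (14.9% higher and 18.1% lower). In proximal Cdx2-sgRNA organoids, Car2 was lower and no member was higher, with 6.40% of all genes called (3.42% higher and 2.98% lower). A fit that blocks the replicate number within each line also called Car12 and Car8 lower there, and made 14 calls over the 4 lines against 10. The median log2 difference of the 9 members in these 4 lines, in this order, was 0.37, 1.06, 0.40 and −0.35 (−0.49 without Car3, which had at most 3 reads in the last line), and that of all genes −0.06, −0.11, −0.10 and −0.03. The bulk libraries cannot tell a larger share of cells of a type from more RNA per cell.

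Car1 had the highest counts of the family, with up to 140560 reads in a library. In proximal Scramble-sgRNA organoids it was at 207 and 144 CPM in WENR-plus and at 8710.2 and 5952 CPM in WENR-minus medium. In distal Scramble-sgRNA organoids it was at 239 and 163 CPM, then 4846 and 3061 CPM. In distal Cdx2-sgRNA organoids it was at 520.4 and 343 CPM, then 8574 and 7377 CPM. The media did not overlap in any of these 3 lines. Withdrawal raised Car1 by 5.38 ± 0.42 (log2 difference ± SE, adjusted p = 7.02e-05), by 4.299 ± 0.403 (3.92e-05) and by 4.21 ± 0.40 (1.55e-05). In proximal Cdx2-sgRNA organoids, Car1 was at 22.4 and 17.0 CPM in WENR-plus and 19.9 and 11.4 CPM in WENR-minus medium, and these libraries overlap. The difference there was −0.33 ± 0.37 (edgeR adjusted p = 0.606).

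The medium effect on Car1 was itself compared between lines. In proximal organoids, the Scramble-sgRNA effect subtracted from the Cdx2-sgRNA effect gave −5.72 ± 0.54 log2 units (edgeR adjusted p = 0.00147), where 3.60% of genes were called (1.67% higher and 1.93% lower). In distal organoids the corresponding difference was −0.09 ± 0.50 (adjusted p = 1.00). EdgeR called none of the genes for this distal difference (0%), with 1457 genes at an unadjusted p under 0.05, and DESeq2 called 120. Of the members, 0 had an unadjusted p under 0.05, and DESeq2 called 0. Between the regions, the proximal effect minus the distal effect was −4.54 ± 0.53 with Cdx2-sgRNA (adjusted p = 4.95e-04, with 17.6% of genes called, 9.86% higher and 7.70% lower). With Scramble-sgRNA it was 1.09 ± 0.50 (adjusted p = 0.513), where 0.0719% of genes were called (0.0327% higher and 0.0392% lower).

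Transcript Car1-201 held 98.3 to 99.3% of the Car1 reads in every library. Car1-203 held 0.688 to 1.70%. The make-up of Car1 by transcript therefore varied by little while its level varied 762-fold between the highest and the lowest library.

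Car4, a surface enzyme of the absorptive epithelium, had 17 to 18865 reads. In the 2 distal WENR-minus groups it was at 401 and 257 CPM with Scramble-sgRNA and at 1382 and 1578 CPM with Cdx2-sgRNA. The other 12 libraries were between 0.914 and 4.46 CPM. The 4 distal WENR-minus libraries thus stood apart from all others. Withdrawal raised Car4 by 7.73 ± 0.57 in distal Scramble-sgRNA (adjusted p = 2.00e-05) and by 8.93 ± 0.58 in distal Cdx2-sgRNA organoids (3.09e-06). In proximal Scramble-sgRNA organoids, Car4 was at 1.34 and 1.54 CPM in WENR-plus and 4.46 and 1.67 CPM in WENR-minus medium, a difference of 1.07 ± 0.53 (edgeR adjusted p = 0.150). Without replicate 2 of the latter group it was 1.70 (adjusted p = 0.0352). In proximal Cdx2-sgRNA organoids it was −0.63 ± 0.58 (adjusted p = 0.527).

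The response of Car4 differed between the regions with either guide. With Scramble-sgRNA, the proximal effect minus the distal effect was −6.65 ± 0.74 log2 units (edgeR adjusted p = 0.0109), where Car4 was among 11 genes called (DESeq2 called 150). Leaving out 1 library at a time moved this adjusted p as high as 0.0830, and it was 0.0710 when only the libraries of the comparison were fitted. With Cdx2-sgRNA the difference was −9.56 ± 0.77 (adjusted p = 1.14e-04).

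**Figure D3:**
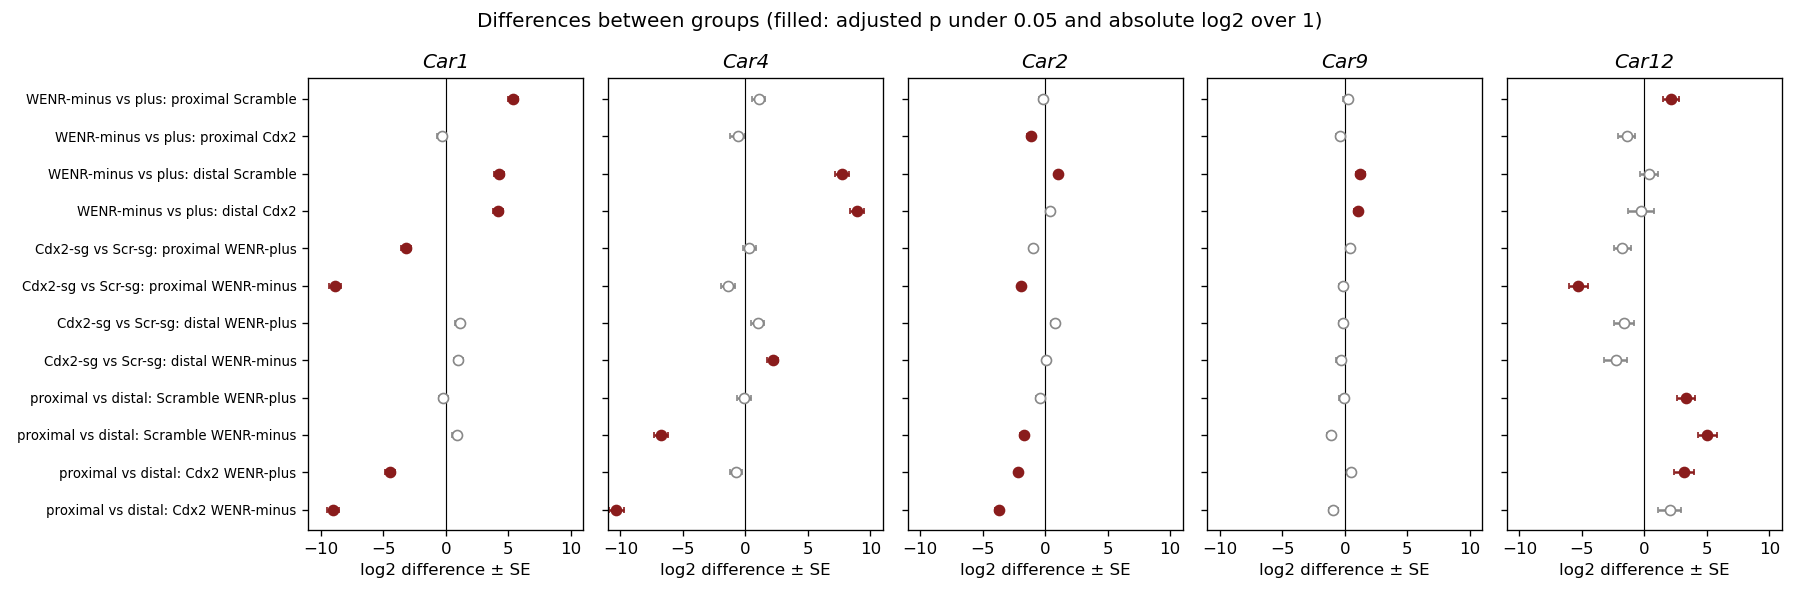
Log2 differences with their standard errors for Car1, Car4, Car2, Car9 and Car12 in the 12 comparisons of groups; filled points passed an adjusted p under 0.05 with an absolute log2 difference over 1. Car4 moved with the medium in distal organoids only among the called values, and Car1 in every line but the proximal Cdx2-sgRNA organoids.

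Car2, the fast and widespread cytosolic enzyme, had 2662 to 32773 reads and the narrowest response of the 3. In distal Scramble-sgRNA organoids it was at 1112 and 918 CPM in WENR-plus and 1929 and 2309.8 CPM in WENR-minus medium, which do not overlap. The rise was 1.06 ± 0.29 (edgeR adjusted p = 0.0117), and the call was lost without replicate 2 of either group (adjusted p = 0.0727 and 0.0678). In distal Cdx2-sgRNA organoids, Car2 was at 1692 and 1734 CPM, then 2337 and 2181 CPM, a difference of 0.40 ± 0.28 (adjusted p = 0.273). By TPM the direction was the opposite in that line, with 2046 and 2097 in WENR-plus and 1941 and 1672 in WENR-minus medium. In proximal Scramble-sgRNA organoids, 839 and 661 CPM overlapped with 786 and 526 CPM. In proximal Cdx2-sgRNA organoids, Car2 fell from 289.7 and 493 CPM to 210.0 and 141 CPM, by 1.16 ± 0.29 (adjusted p = 0.0232). That call was lost without replicate 2 of the WENR-plus group, where it fell by 0.72 (adjusted p = 0.195), or of the WENR-minus group, where it fell by 0.90 (adjusted p = 0.144). With Cdx2-sgRNA, the medium effect on Car2 in proximal minus that in distal organoids was −1.56 ± 0.40 (adjusted p = 0.0179), a call that 5 of the 8 libraries decided, with an adjusted p between 0.0501 and 0.0667 when each was left out.

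Car9 is induced by hypoxia in many tissues. It was among the steadiest members, with a 3.59-fold range over the 16 libraries. In distal Scramble-sgRNA organoids it was at 209 and 151 CPM in WENR-plus and 420.4 and 429 CPM in WENR-minus medium, and in distal Cdx2-sgRNA organoids at 119 and 204 CPM, then 293 and 377 CPM. The media did not overlap in either distal line. By TPM they did not overlap either, and the means went from 157 to 275 with Scramble-sgRNA and from 142 to 196 with Cdx2-sgRNA. The rises were 1.24 ± 0.34 (edgeR adjusted p = 0.0133) and 1.05 ± 0.34 (adjusted p = 0.0247). The first was lost without replicate 1 of the WENR-minus or replicate 2 of the WENR-plus group (adjusted p = 0.0501 and 0.0894), the second without replicate 1 of the WENR-plus or replicate 2 of the WENR-minus group (0.152 and 0.112). In proximal organoids, the 8 libraries lay between 129 and 264 CPM, and the media differed by 0.22 ± 0.34 with Scramble-sgRNA and −0.35 ± 0.34 with Cdx2-sgRNA. The difference between the regions in Cdx2-sgRNA organoids was −1.40 ± 0.48 (edgeR adjusted p = 0.0581), and DESeq2 called it (−1.46, adjusted p = 0.0139), as did the block within each line (−1.44, adjusted p = 0.00160). In all, 8 of 18 alternatives called it, with values from −1.86 to −1.12 over the 18.

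Of 12 other genes of the hypoxia response, 7 were called higher and none lower upon withdrawal in distal Scramble-sgRNA organoids, and 6 and none in distal Cdx2-sgRNA organoids. In proximal organoids, 4 were higher with Scramble-sgRNA, and none was called in either direction with Cdx2-sgRNA. Of all genes, 12.2%, 14.9%, 8.73% and 3.42% were called higher in these 4 comparisons. The median log2 differences of the list in these 4 lines were 1.26, 1.095, 0.83 and −0.26. Slc2a1, a glucose transporter, had the largest rise of the list in distal Scramble-sgRNA organoids, 2.34 ± 0.30, followed by the hexokinase gene Hk2, with 1.98 ± 0.20. Upon Cdx2-sgRNA in proximal organoids, where Car9 was not called, 6 of the 12 were higher in WENR-plus medium (6.93% of all genes), and 4 were higher and 2 lower in WENR-minus medium (9.04% and 12.1% of all genes). None was called for the guide in distal organoids. The core of the hypoxia-response element, ACGTG, was searched on both strands in the 250 bases before the start of each promoter entry of RefSeq for GRCm38.p6. It was present in 16.6% of 32851 such windows and, among the 5 members with an entry (Car4, Car5b, Car7, Car9 and Car12), in that of Car9 alone. The 30 bases around this match, on the plus strand of chr4:43506996-43507025, are shown because Car9 is the family member known for this response, with the 5 matching letters in capitals.
Car9: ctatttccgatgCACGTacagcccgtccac
The match begins 18 bases before the RefSeq start and 42 bases after the start of the gene in GENCODE vM21. A match is a description of the sequence. TTTAT, a core of sites for Cdx factors that 37.3% of all windows hold, was in none of the windows of these 5 members. CTTTGA, a core of sites for TCF factors that 13.8% of all windows hold, was in that of Car9 alone.

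Car12, the other transmembrane enzyme, had its highest counts in proximal Scramble-sgRNA organoids. There it was at 19.4 and 15.7 CPM in WENR-plus and 83.3 and 67.3 CPM in WENR-minus medium, without overlap. Withdrawal raised it by 2.10 ± 0.65 (edgeR adjusted p = 0.0308), a call lost without any 1 of the 4 libraries (adjusted p = 0.0620 to 0.163). The other 12 libraries were at 0.401 to 8.14 CPM, and Car12 was not called for the medium in the other 3 lines. In proximal Cdx2-sgRNA organoids its difference was −1.42 (adjusted p = 0.210), and the block within each line called it (−1.46, adjusted p = 0.0140). Leaving out 1 library moved it between −2.79 and −0.12, the latter without replicate 2 of the WENR-plus group.

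The next question was how the members differ upon Cdx2-sgRNA. In proximal WENR-minus organoids, 4 members were called lower (Car1, Car2, Car8 and Car12) and Car5b higher, where 21.2% of all genes passed (9.04% higher and 12.1% lower). In proximal WENR-plus organoids, Car1 alone was called, lower, with 15.9% of genes called (6.93% higher and 8.94% lower). In distal WENR-minus organoids, Car4 alone was called, higher, with 5.25% of genes called (2.24% higher and 3.00% lower). In distal WENR-plus organoids no member was called by edgeR, where 0.262% of genes were called (0.137% higher and 0.124% lower). Of the members, 3 had an unadjusted p under 0.05 there, and DESeq2 called 0. The median log2 difference of the 9 members was −1.73 and −0.94 in proximal WENR-minus and WENR-plus organoids, against −0.000325 and −0.05 over all genes, and 0.09 and 0.56 in distal ones, against 0 and −0.01. The first of these is the fitted value of Car3. With the bound for Car3 in its place the median was −1.38, and without Car3, which had at most 3 reads in either group, that of proximal WENR-plus organoids was −0.35.

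Car1 fell by 8.88 ± 0.50 upon Cdx2-sgRNA in proximal WENR-minus organoids (edgeR adjusted p = 5.49e-07), or 469.9-fold, to 15.7 ± 6.0 CPM from 7331 ± 1950.5 CPM (SD, n = 2). In WENR-plus medium it fell by 3.16 ± 0.39 (adjusted p = 2.39e-04), from 176 ± 45 to 19.7 ± 3.8 CPM. In the distal libraries labelled Cdx2-sgRNA, Car1 was higher by 1.01 ± 0.35 in WENR-minus (adjusted p = 0.0967) and by 1.103 ± 0.356 in WENR-plus medium (adjusted p = 0.439), with no overlap between the guides in either medium. DESeq2 called the first of these (adjusted p = 0.0260), and a fit with the replicate number as a block called both. The guide effect on Car1 in proximal minus that in distal organoids was −9.89 ± 0.59 in WENR-minus medium (adjusted p = 1.64e-06), where 14.3% of genes were called (5.17% higher and 9.08% lower). In WENR-plus medium it was −4.26 ± 0.52 (adjusted p = 9.28e-04), where 4.98% of genes were called (1.22% higher and 3.76% lower).

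Car4 rose upon Cdx2-sgRNA by 2.17 ± 0.42 in distal WENR-minus organoids (edgeR adjusted p = 0.0119), from 329 ± 102 to 1480.0 ± 138 CPM, in libraries whose Cdx2 reads overlapped between the guides. The call was lost without replicate 2 of either group (adjusted p = 0.119 and 0.0649), and the difference stayed at 1.88 or more in these fits. In proximal WENR-minus organoids, Car4 was at 4.46 and 1.67 CPM with Scramble-sgRNA and at 1.34 and 1.00 CPM with Cdx2-sgRNA, a difference of −1.38 ± 0.55 (adjusted p = 0.0792). DESeq2 called this difference (adjusted p = 0.0321), which was −0.50 without replicate 1 (adjusted p = 0.595) and −1.96 without replicate 2 (adjusted p = 0.0233) of Scramble-sgRNA. In WENR-minus medium, the guide effect on Car4 in proximal minus that in distal organoids was −3.55 ± 0.69 (adjusted p = 0.00561).

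Car2 fell by 1.90 ± 0.29 in proximal WENR-minus organoids (edgeR adjusted p = 6.40e-04), from 656 ± 184 to 175 ± 49 CPM. In WENR-plus medium the difference was −0.94 ± 0.29, with an adjusted p of 0.0337 but a size under the threshold. Of the Cdx2-sgRNA libraries, leaving out replicate 1 gave −0.61 (adjusted p = 0.196) and leaving out replicate 2 gave −1.37 (adjusted p = 0.0173), which was called. In distal organoids, it was 0.09 ± 0.28 without and 0.75 ± 0.28 with the growth factors (edgeR adjusted p = 0.881 and 0.612). The guide effect differed between the regions by −1.995 ± 0.404 in WENR-minus (adjusted p = 0.00709) and by −1.69 ± 0.40 in WENR-plus medium (adjusted p = 0.0327). The latter call was lost without each of 7 of the 8 libraries (adjusted p = 0.0626 to 0.131).

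Car12 fell by 5.29 ± 0.77 in proximal WENR-minus organoids (edgeR adjusted p = 4.32e-04), from 75.3 ± 11.3 to 1.85 ± 1.57 CPM. In WENR-plus medium it was at 2.09 and 8.14 CPM with Cdx2-sgRNA, below the 19.4 and 15.7 CPM with Scramble-sgRNA, a difference of −1.77 ± 0.66 (adjusted p = 0.0711) that moved between −3.06 and −1.11 when 1 library was left out. A fit with the replicate number as a block called this difference. In the distal libraries, Car12 had 15 to 53 reads with Scramble-sgRNA and 5 to 14 with Cdx2-sgRNA. The differences there were −2.32 ± 0.91 and −1.63 ± 0.82 in WENR-minus and WENR-plus medium (edgeR adjusted p = 0.137 and 0.834), and DESeq2 called the first (adjusted p = 0.0363). Transcript Car12-201 held 90.7% or more of the Car12 reads in the 8 proximal libraries. In the 8 distal libraries it held either all or none of the Car12 reads. It held none in both Cdx2-sgRNA WENR-minus libraries (5 and 6 reads) and in replicate 2 of either guide in WENR-plus medium (53 reads with Scramble-sgRNA and 14 with Cdx2-sgRNA).

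Car8, the member without catalytic activity, followed the proximal Scramble-sgRNA organoids. It had 599 and 270 reads there in WENR-plus and 570 and 382 reads in WENR-minus medium, or 15.98 to 35.3 CPM. With Cdx2-sgRNA, the proximal libraries split: 387 and 16 reads in WENR-plus medium, then 41 and 0 reads in WENR-minus medium. The fall in WENR-minus medium was 4.25 ± 1.47 (edgeR adjusted p = 0.0476), and it was lost without either Scramble-sgRNA library or without replicate 2 of Cdx2-sgRNA (adjusted p = 0.0707 to 0.167), with values from −4.63 to −3.19. Without replicate 1 of Cdx2-sgRNA, the group holds 0 reads and the fitted value is −11.9, which is no measure of size. In WENR-plus medium the difference was −0.94 ± 1.25, and it turned to 0.01 without replicate 2 of Cdx2-sgRNA. In distal Cdx2-sgRNA WENR-minus organoids, Car8 had 1 and 2 reads, against 9 and 45 reads with Scramble-sgRNA (edgeR adjusted p = 0.274).

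Car5b, the mitochondrial enzyme, was low throughout, with 1 to 148 reads, and moved the other way. In proximal WENR-minus organoids it was at 1.24 and 0.0521 CPM with Scramble-sgRNA and at 10.99 and 6.03 CPM with Cdx2-sgRNA, without overlap. The rise was 3.74 ± 0.94 (edgeR adjusted p = 0.0111), and 1 of the Scramble-sgRNA libraries holds 1 read. It was 7.18 when that library stood alone for its group and 2.75 without it. The call was lost when only the libraries of this comparison were fitted (adjusted p = 0.0643). In distal WENR-minus organoids, 8.80 and 4.18 CPM with Cdx2-sgRNA stood against 1.77 and 1.43 CPM, a difference of 2.01 ± 0.86 (adjusted p = 0.167). In proximal WENR-plus organoids it was 1.76 ± 0.86 (adjusted p = 0.160).

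Car9 and Car13 were not called for the guide in any region or medium. The differences of Car9 lay between −0.34 ± 0.34 and 0.43 ± 0.34, and those of Car13 between −0.65 ± 0.31 and 0.24 ± 0.30.

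The third comparison was between proximal and distal organoids. With Scramble-sgRNA in WENR-minus medium, Car12 was called higher in proximal organoids, and Car2 and Car4 lower (6.08% of all genes called, 2.88% higher and 3.20% lower). In WENR-plus medium Car12 alone was called, higher in proximal organoids (1.75% of genes called, 0.680% higher and 1.07% lower). With Cdx2-sgRNA in WENR-minus medium, Car13 was higher and Car1, Car2, Car3 and Car4 lower (34.6% of genes called, 18.1% higher and 16.5% lower). In WENR-plus medium Car12 was higher and Car1, Car2 and Car3 lower (17.0% of genes called, 7.40% higher and 9.57% lower). Car3 passed the filter on low counts through the distal Cdx2-sgRNA libraries, so its calls here only describe where it was counted. In Scramble-sgRNA organoids the medians of the 9 members, WENR-minus medium first, were −0.72 and −0.09, against 0.07 and 0.00 over all genes. The first is the value of Car3, from 3 to 7 reads. In Cdx2-sgRNA organoids they were −0.92 and 0.49, against 0.13 and −0.01.

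Car12 was the member of the proximal colon in the Scramble-sgRNA lines. It was higher in proximal than in distal organoids by 5.00 ± 0.76 in WENR-minus (edgeR adjusted p = 0.00280) and by 3.29 ± 0.71 in WENR-plus medium (adjusted p = 0.0401). The latter call was lost without any 1 of the 4 libraries (adjusted p = 0.0618 to 0.225). With Cdx2-sgRNA it was higher by 3.14 ± 0.79 in WENR-plus medium (adjusted p = 0.0133) and by 2.03 ± 0.92 in WENR-minus medium (adjusted p = 0.0867, or 0.0374 with DESeq2). Of the proximal libraries, leaving out replicate 2 took the latter to 0.65 (adjusted p = 0.699) and leaving out replicate 1 to 2.66 (adjusted p = 0.0386). The difference in WENR-plus medium was lost without 3 of the 4 libraries (adjusted p = 0.0549 to 0.142), and was 1.84 without replicate 2 of the proximal group. Car8 differed in the same direction in Scramble-sgRNA organoids, by 3.80 ± 1.43 in WENR-minus and 4.17 ± 1.46 with the factors present, without overlap and without passing the test (edgeR adjusted p = 0.119 and 0.205). Fitted on the libraries of the comparison alone, both passed (adjusted p = 0.0302 and 0.0263).

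Car4 and Car2 were called higher in distal organoids with either guide, Car4 in WENR-minus medium only. The difference of Car4 in proximal from distal organoids was −6.76 ± 0.54 with Scramble-sgRNA (edgeR adjusted p = 4.88e-05) and −10.32 ± 0.63 with Cdx2-sgRNA (adjusted p = 6.17e-07). In WENR-plus medium the differences were −0.11 ± 0.55 and −0.76 ± 0.51 (adjusted p = 0.969 and 0.285). That of Car2 in WENR-minus medium was −1.69 ± 0.29 with Scramble-sgRNA (adjusted p = 0.00539) and −3.69 ± 0.31 with Cdx2-sgRNA (adjusted p = 6.47e-06). Without replicate 2 of proximal Scramble-sgRNA in WENR-minus medium, the first was −1.43 with an adjusted p of 0.0640. In WENR-plus medium it was −0.44 ± 0.28 with Scramble-sgRNA (adjusted p = 0.5496) and −2.13 ± 0.29 with Cdx2-sgRNA (adjusted p = 4.88e-04).

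Car1 did not pass the test between the regions with Scramble-sgRNA. The difference was 0.89 ± 0.35 in WENR-minus medium (edgeR adjusted p = 0.138), with both proximal libraries above both distal ones, and −0.19 ± 0.35 in WENR-plus medium (adjusted p = 0.879). With Cdx2-sgRNA, the proximal level differed from the distal level by −8.998 ± 0.500 in WENR-minus medium (adjusted p = 2.92e-07). In WENR-plus medium the difference was −4.45 ± 0.41 (adjusted p = 2.89e-05).

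Car13, a cytosolic enzyme, was the steadiest member, at 19.8 to 59.2 CPM in all 16 libraries. It was higher in proximal than in distal Cdx2-sgRNA organoids by 1.05 ± 0.31 in WENR-minus medium (edgeR adjusted p = 0.0151), a call lost without replicate 1 of either group, with 0.69 when the proximal library was left out and 0.90 when the distal one was (adjusted p = 0.110 and 0.104). In WENR-plus medium the difference was 0.87 ± 0.30 (adjusted p = 0.0521). It was 0.28 without replicate 1 of the proximal group (adjusted p = 0.502), and it was called without replicate 2 of that group (1.28, adjusted p = 0.0119) and with protein-coding transcripts alone (1.05, adjusted p = 0.0212). For Car9, the difference of proximal from distal Scramble-sgRNA organoids in WENR-minus medium was −1.11 ± 0.34 (adjusted p = 0.0625), and DESeq2 called this difference (adjusted p = 0.00847). It was −0.69 without replicate 2 (adjusted p = 0.327) and −1.77 without replicate 1 (adjusted p = 0.0191) of the proximal group.

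Car3, an enzyme of muscle and fat, stood near the floor. It had 9 to 17 reads in the 4 distal Cdx2-sgRNA libraries and 0 to 7 in the other 12. It passed the filter through the distal Cdx2-sgRNA organoids, so its calls between regions there are a description of where it was counted. Compared with distal Cdx2-sgRNA organoids, it was at least 4.41-fold lower in proximal ones when the factors were withdrawn and at least 4.84-fold lower when they were present. These bounds take 3 reads per library as the proximal level, and no p-value is given with them. Of 4 adipocyte markers, Adipoq, Plin1 and Lep had at most 1 read in any library. Fabp4 had up to 235 reads, and the summed level of the 4 markers was 8.08 to 18.3 CPM in the distal Cdx2-sgRNA libraries and at most 4.81 CPM in the others. Among 7 fibroblast and muscle markers, Dcn had 0 and Ckm at most 3 reads, while Mb, the myoglobin gene, had 1 to 501. The part of other cells in the Car3 reads was not tested.

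**Figure D4:**
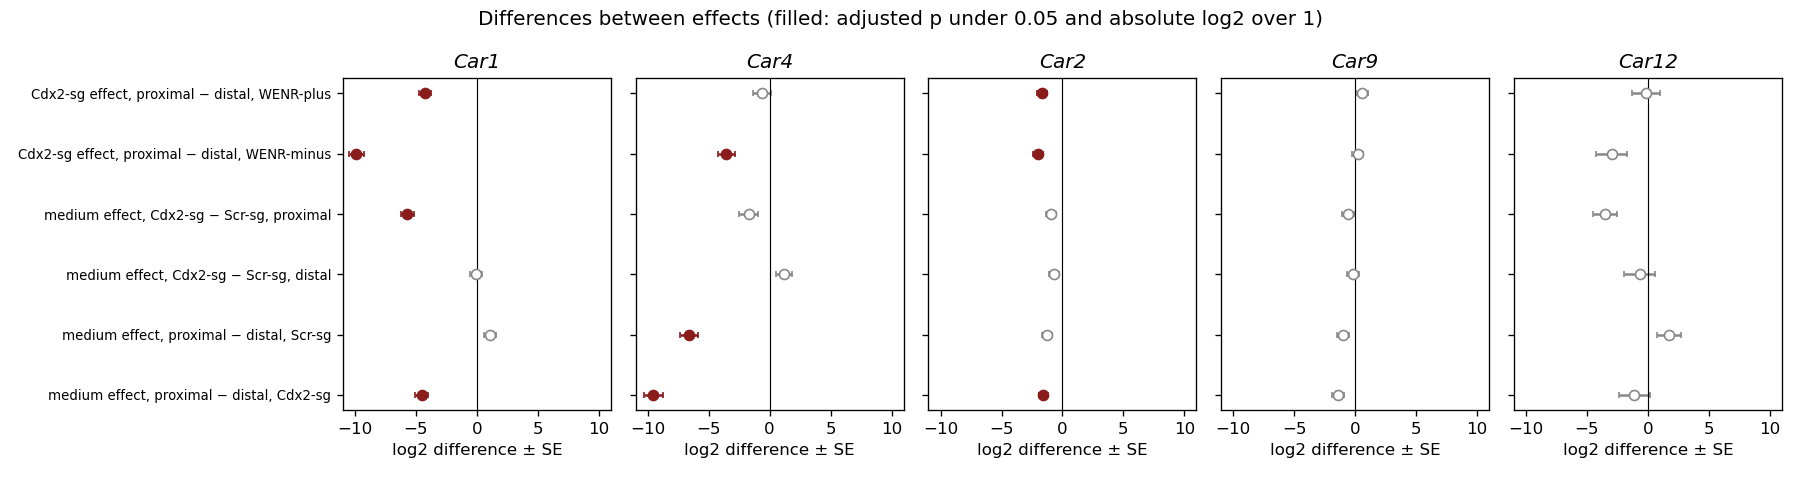
Differences between effects with their standard errors (log2 units) for Car1, Car4, Car2, Car9 and Car12; the axis names which effect is subtracted from which, and filled points passed an adjusted p under 0.05 with an absolute log2 difference over 1. All filled points lie to the left, with Car1 and Car4 the farthest from 0.

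The order of the 8 groups by mean CPM differed between members. Car1 was highest in distal Cdx2-sgRNA WENR-minus organoids (7975 ± 846 CPM) and next in proximal Scramble-sgRNA WENR-minus organoids, and these 2 groups overlapped and changed places by TPM. Its lowest neighbours, the 2 proximal Cdx2-sgRNA groups, overlapped as well. For Car2, all 4 distal groups stood above all 4 proximal groups, and of its 7 neighbouring pairs 5 did not overlap by CPM and 2 by TPM. For Car12 and Car8 the 2 proximal Scramble-sgRNA groups led. For Car13 and Car9, 2 of 7 neighbouring pairs of groups did not overlap, and for Car7 none. The share of such pairs over all genes was not computed, so these counts are a description only.

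Markers of colonocytes were followed beside Car1 and Car4. The summed CPM of 8 colonocyte markers (Krt20, Slc26a3, Fabp2, Aqp8, Guca2a, Ceacam20, Slc37a2 and Emp1) was 242 to 553 in the 8 WENR-plus libraries. It was 3653 to 9771 in the WENR-minus libraries of 3 lines and 1002 and 1989 in those of proximal Cdx2-sgRNA organoids, where Car1 was not called. The media thus did not overlap in any of the 4 lines. Car4 stayed at 4.46 CPM or less in the proximal Scramble-sgRNA WENR-minus libraries, where this sum was 3653 and 8127. Emp1 alone gave 2752 and 6691 CPM of it. Without Emp1, a marker set aside after its values were seen, the sum was 900.4 and 1436 CPM there and 3974 to 7588 CPM in the 4 distal WENR-minus libraries. It was 113 and 222 CPM in WENR-plus and 499.6 and 1579 CPM in WENR-minus medium in proximal Cdx2-sgRNA organoids. In that line, the median log2 difference of the 8 markers between the media was 0.32. Of the 8 markers, 6 were called lower and none higher upon Cdx2-sgRNA in proximal WENR-minus organoids, with a median log2 difference of −4.45, in the comparison in which Car1 fell. Of all genes, 12.1% were lower and 9.04% higher there. Of the 8 markers, Slc37a2, Aqp8 and Slc26a3 had the higher level in distal organoids among the Scramble-sgRNA WENR-minus libraries, each past the test (3.20% of all genes), and the median log2 difference of the list (proximal less distal) was −0.60. Upon withdrawal, 7 of the 8 markers were called higher in either Scramble-sgRNA line, 6 in distal Cdx2-sgRNA organoids and 1 (Krt20) in proximal Cdx2-sgRNA organoids. Of 6 proliferation markers, 5 were lower upon withdrawal in each of the 3 lines in which Car1 rose, and none was called in proximal Cdx2-sgRNA organoids. Of 7 crypt and stem cell markers, by contrast, 6 were lower in proximal Scramble-sgRNA, 5 in distal Scramble-sgRNA, 6 in distal Cdx2-sgRNA and 4 in proximal Cdx2-sgRNA organoids. Of all genes, 8.24%, 14.2%, 18.1% and 2.98% were called lower upon withdrawal in these 4 lines, in this order, and 8.73%, 12.2%, 14.9% and 3.42% higher. Goblet cell markers (7 genes) summed to 36.7 to 73.5 CPM in the 4 proximal Cdx2-sgRNA libraries and to 842 or more in the other 12. Enteroendocrine markers (4 genes) summed to 0.846 to 1.93 CPM there and to 50.6 or more in the other 12, and tuft cell markers (5 genes) to 2.45 to 11.5 CPM there and to at most 0.533 in the others. The part of these cell types in the results for the members was not tested.

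**Figure D5:**
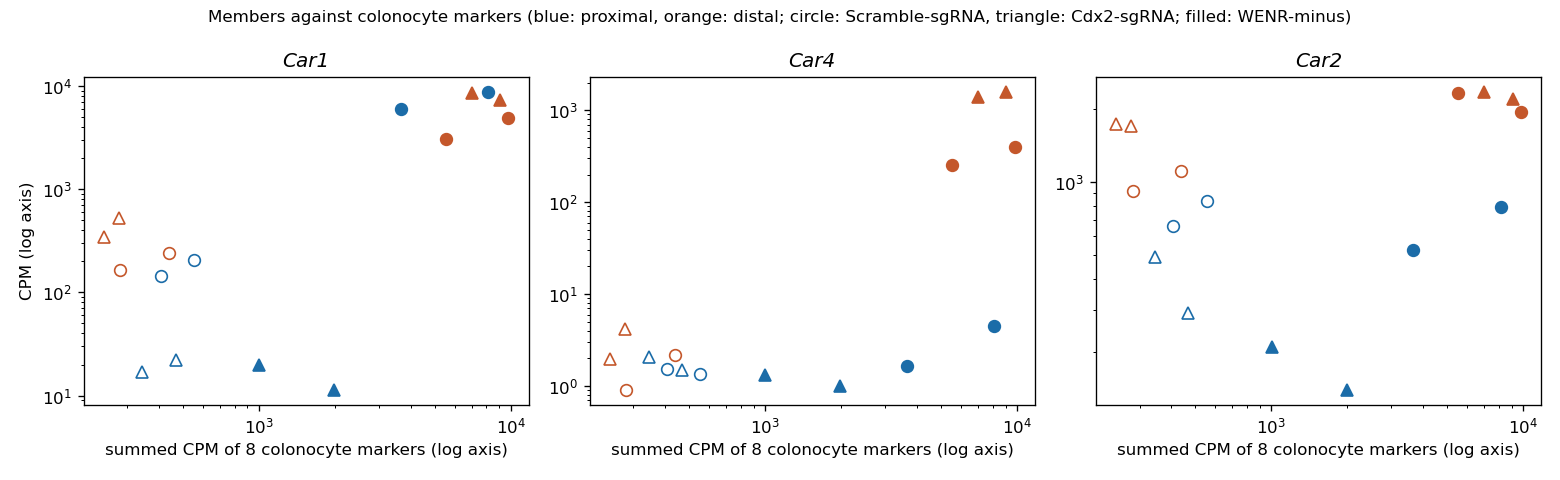
CPM of Car1, Car4 and Car2 in each of the 16 libraries against the summed CPM of 8 colonocyte markers in the same library, both on log axes; colour gives the region, shape the guide and filling the medium. Car4 exceeds 4.46 CPM only in the 4 distal WENR-minus libraries, while 2 proximal Scramble-sgRNA libraries reach a marker sum of 3653 and 8127. Emp1 alone gives 2752 and 6691 CPM of these 2 sums.

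The transporters that use the bicarbonate and protons of these enzymes were described with a list of 18 genes, of which 17 were tested. Slc26a3 and Aqp8 are also among the colonocyte markers. Upon withdrawal, 6 were called higher and none lower in proximal Scramble-sgRNA organoids, 8 and 1 in distal Scramble-sgRNA organoids, 7 and 2 in distal Cdx2-sgRNA organoids, and 1 and none in proximal Cdx2-sgRNA organoids, where 17.0%, 26.4%, 33.1% and 6.40% of all genes were called. The largest rise in distal Scramble-sgRNA organoids was that of Slc9a3, the apical sodium-proton exchanger, with 7.85 ± 0.91 (edgeR adjusted p = 1.07e-04), followed by the water channel gene Aqp8, with 6.98 ± 0.93. Upon Cdx2-sgRNA in proximal WENR-minus organoids, 9 were lower and 1 higher, namely the sodium bicarbonate cotransporter gene Slc4a4, against 12.1% and 9.04% of all genes. The lowest were Slc5a8, a monocarboxylate transporter gene that was at least 298.7-fold lower with 3 reads per library taken as its level, and Cftr, the chloride and bicarbonate channel gene (−7.69 ± 0.76). In distal WENR-minus organoids, 1 was higher (Atp12a, by 2.20 ± 0.32) and 3 lower, against 2.24% and 3.00% of all genes. Atp12a encodes a proton-potassium pump of the distal colon. It was at 1000.1 and 4591 CPM (means) in the distal Scramble-sgRNA and Cdx2-sgRNA WENR-minus organoids and at 3.44 to 4.93 CPM in the 4 proximal groups. Between the regions, 1 was higher in proximal and 5 in distal Scramble-sgRNA WENR-minus organoids, and 2 and 10 with Cdx2-sgRNA, where 6.08% and 34.6% of all genes were called. The other 6 carbonic anhydrase genes, Car5a, Car6, Car10, Car11, Car14 and Car15, had at most 19 reads in any library (Car6), and Car5a had none. Of these, Car6 alone was tested, and it was called in no comparison by edgeR.

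For each tested member but Car2, for which 2 are named, the 3 tested genes with the most similar profile are given by Pearson's r of log2 CPM over the 16 libraries. These are descriptions, and the libraries are not 16 independent samples. Nearest to Car1 were Ceacam18 (0.99), Plscr1 (0.98) and Mep1b (0.98), and nearest to Car4 were Kyat1 (0.99), Spink1 (0.99) and Ggt1 (0.98). Car2 was near to Tnik (0.96) and Scg2 (0.94), and Car12 to Slc2a6 (0.94), Gucy1a2 (0.91) and Malrd1 (0.90). Car9 was nearest to Clpx (0.91), Mettl7a1 (0.90) and Gapdh (0.89), the last a glycolytic enzyme. For Car13 they were Tbrg1 (0.86), Wls (0.83) and Dmrta2 (0.83), for Car5b Dapp1 (0.89), Ttll10 (0.87) and Ubr2 (0.87), for Car8 Fggy (0.89), Atg4b (0.87) and Slc5a9 (0.86), and for Car3 Peg3, Abcg5 and Prr14l (all 0.89). Among the members themselves, Car4 and Car9 had the highest r (0.79), then Car2 and Car3 (0.76) and Car1 and Car2 (0.75). The lowest were Car5b and Car12 (−0.66) and Car2 and Car13 (−0.65).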

How the data were processed

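RNA-seq of mouse colon organoids was analysed in 16 libraries. The authors quantified reads with Salmon 1.1.0 on GENCODE vM23 transcripts (mm10) and analysed them with tximport and DESeq2, per the methods. The submitters' processing notes give DESeq2 as 1.32, and the study's software list names another version. For each transcript, an estimated count (expected count) was deposited, unscaled between libraries, beside the TPM from the authors' Salmon run. Effective lengths were deposited beside them.

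Here, 139864 of 140748 transcripts were matched to GENCODE vM21 and summed to 54123 genes, and 0.257 to 0.510% of the counts of a library were left out. Library totals were 12465194 to 18922143 (median 16836530), and mitochondrial ribosomal RNA took 15.4 to 28.0%. In R 4.3.3, genes passing filterByExpr of edgeR 4.0.16 were rounded to whole counts, scaled by TMM and fitted with 1 coefficient per group over all 16 libraries (glmQLFit, 8 residual degrees of freedom, glmQLFTest). Benjamini-Hochberg adjustment was made separately in 18 comparisons. The standard error is the absolute log2 difference divided by the square root of F. Where no library of a group exceeded 3 reads, a bound against 3 reads per library replaced the fitted value. Such a bound covers counting error only. CPM is given as mean ± SD of 2 libraries, and levels of different genes were compared by TPM only. The fit was tested on simulated counts.

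The alternatives were DESeq2 1.42.0, other size factors, other filters on low counts, length-scaled counts, protein-coding transcripts, the libraries of the comparison alone, no fold change threshold, a replicate block, a replicate block within each line (chosen after seeing the data) and the omission of each library. Named genes are the 10 members, the other 6 carbonic anhydrases, Cdx2 and Cdx1, at most 2 highest and 2 lowest called genes of the transporter and hypoxia lists, and the 3 genes with the nearest profile. Marker genes printed with values were chosen after these were seen. Besides those printed, 1 gene of similar profile and 1 sequence are not reported here. The members and lists were chosen with earlier results of these data known. Marker lists of tuft cells, enteroendocrine cells, crypt and stem cells, proliferation, neurons and glia and endothelium were also computed. Summed over each list, the means of the 8 groups were 0.0807 to 7.39, 0.971 to 317, 104.5 to 549, 256 to 1497, 2.42 to 6.57 and, with blood cells, 0.184 to 1.57 CPM. Methods state that organoids came from 2 mice, and no source used here says which replicate number belongs to which mouse.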

Additional observations from a re-analysis of the deposited data

Results flagged for a closer look

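Some effects on a member differed between lines by edgeR's test of the difference itself, in log2 units. The response of Car1 to the guide, with the distal value subtracted from the proximal one, was −9.89 in WENR-minus and −4.26 in the other medium. The response of Car1 to withdrawal in proximal organoids, Cdx2-sgRNA less Scramble-sgRNA, was −5.72, and that with Cdx2-sgRNA, proximal less distal, was −4.54. The response of Car2 to the guide, proximal less distal, was −1.995 without and −1.69 with the growth factors, and its response to withdrawal with Cdx2-sgRNA, proximal less distal, was −1.56. The response of Car4 to the guide without the growth factors, proximal less distal, was −3.55, and its response to withdrawal, proximal less distal, was −6.65 with Scramble-sgRNA and −9.56 with Cdx2-sgRNA. In each of the 10, the proximal or the Cdx2-sgRNA line had the lower value. Cdx2-sgRNA cultures are clones, so guide and clone cannot be told apart in these differences, except in that of Car4 with Scramble-sgRNA, which includes no Cdx2-sgRNA library. Car3 was also called for the difference of the guide response between regions in WENR-plus medium, but 3 of its 4 groups there had at most 3 reads per library, and no fitted value is given.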

How the results depend on the processing

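The 41 member calls (30 between groups and 11 between effects) kept their direction under every alternative run, and 24 of them also kept their call under all. They include the calls of Car3, which passed the filter on low counts through the distal Cdx2-sgRNA libraries. Calls for the medium effect (10) stayed between 8 and 15, those for the region effect (13) between 9 and 19 and those for the guide by region difference (6) between 4 and 7. Without a filter on low counts, 16 calls for the guide effect stood against 7, 7 for the medium by guide difference against 1, and 8 for the medium by region difference against 4. With at least 10 counts in every library, 4 calls remained for the guide effect, since fewer members were tested. DESeq2 gave 2 for the medium by guide difference. The causes of the other shifts were not tested. When each library was left out, the calls for the medium, guide and region effects were 8 to 10, 6 to 9 and 12 to 15, and for the guide by region, medium by guide and medium by region differences 4 to 7, 1 to 2 and 3 to 4. A lone library is then assumed to vary like the other groups. Among differences that were not called, that of Car1 between media in proximal Cdx2-sgRNA organoids moved between −0.75 and 0.0196, that of Car1 between regions with Scramble-sgRNA in WENR-plus medium between −0.48 and 0.0950, and that of Car8 between guides in proximal WENR-plus organoids between −4.71 and 0.0107. That of Car8 between media in proximal Cdx2-sgRNA organoids moved between −10.61 and 0.773, and its medium by guide difference in proximal organoids between −10.96 and 0.458, the lowest resting on a group with 0 reads. By TPM in place of CPM, 20 of 70 neighbouring groups of the members did not overlap, against 25, and no such count was made over all genes.

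Same-numbered libraries of the 2 media of a line correlated in their deviations at 0.28 to 0.59 (4 pairs of groups), which points to pairing within a line. Across lines they correlated at −0.06 to 0.19 (24 pairs, 5 over 0.1), which does not settle whether the same number marks the same mouse. A replicate block over all lines gave 10 guide effect calls against 7, adding Car1 in both distal comparisons (1.05 and 1.098, adjusted p = 0.00450 and 0.0134) and Car12 in proximal WENR-plus organoids (−1.996, adjusted p = 0.0271). It also gave 2 medium by guide calls, adding Car12 (−3.51, adjusted p = 0.0326), and the other families had as many calls as before. A replicate block within each line, chosen after seeing the data, can be fitted for the medium only. It kept the 10 medium calls and gave 14, adding in proximal Cdx2-sgRNA organoids Car12 and Car8 (−3.06, adjusted p = 9.12e-04) and in distal Cdx2-sgRNA organoids Car5b (1.51, adjusted p = 0.0351) and Car8, which is at the floor there. It gave 3 medium by guide calls, adding Car12 (−3.57, adjusted p = 0.00180) and Car8 (−3.37, adjusted p = 0.00311), and 5 medium by region calls, adding Car9.

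Depth limits Car3, Car7, Car12 in distal Cdx2-sgRNA organoids (5 to 14 reads), Car8 in distal Cdx2-sgRNA WENR-minus organoids (1 and 2 reads) and the single proximal WENR-minus libraries with 0 reads of Car8 or 1 of Car5b.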
